A study of Homo sapiens with 6 samples.

Results

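The 57 genes described here carry the work of DNA replication and the entry into S phase. They were taken by symbol from a fixed list of genes for origin licensing, the replication fork, the polymerases, nucleotide supply, cyclin E and the E2F factors. The rule uses no measured value, but the list was chosen with earlier results of these data known. All 57 were found among the 47470 genes of the count files, and all 57 passed the filter on low counts that left 15298 genes for testing. RNA was sequenced from wild-type HEK293T cells, a kidney-derived embryonic human line into which the large T antigen of SV40 was introduced. The 3 untreated libraries had no drug, and the 3 VPA-treated libraries came from the same line kept for 1 day with 1 mM valproic acid (VPA), which inhibits histone deacetylases. Large T antigen binds the RB family of E2F repressors, and every library shares it. One established line was used and the labels do not say whether the 3 libraries of a group came from separate cultures, so p-values measure only the spread between these libraries.

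The labelled line was checked against marker genes. The kidney progenitor genes PAX2, LHX1 and EYA1 had 528 to 1644 counts in sum over the 6 libraries. Among markers of other tissues, counts in sum were 1 to 5 for 4 hepatocyte genes, 0 to 50 for 4 keratinocyte genes (KRT5, KRT14 and KRT1 at 0), 1 to 154 for 5 leukocyte genes (PTPRC, the defining gene, at 12) and 1 to 164 for 4 muscle genes (MYOG at 1). Of the tested muscle genes DES was higher and ACTA1 lower after VPA, and the keratinocyte gene DSG3 was higher, all at these low counts, and their part in the results was not tested. Counts on genes were between 18622267 and 18828495 per library, so depth hardly differed. With a biological coefficient of variation of 3.83% between libraries, even small differences passed the test where counts were high.

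Replication starts in separate steps. In G1 the origin recognition complex, with CDC6 and CDT1, loads the MCM2 to MCM7 helicase on DNA, and in S phase the kinase CDC7 and cyclin E with its kinase partner recruit CDC45 and GINS, which turn the loaded ring into an active helicase. Polymerases with the clamp PCNA then copy both strands, with RPA on the single strands and deoxynucleotides made by ribonucleotide reductase and thymidylate synthase. E2F factors, held back by RB proteins until late G1, drive the transcription of many of these genes.

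Windows of 150 bases before the RefSeq start are shown for members with and without an E2F word, since E2F factors are known regulators of many replication genes. They come from RefSeq on GRCh38.p14, for the first start listed per gene, and are written 5' to 3' on the strand of the gene. The windows are chr2:135876444-135876593 (minus strand) for MCM6, chr18:657503-657652 (plus) for TYMS, chr20:33686386-33686535 (minus) for E2F1, chr6:20401729-20401878 (plus) for E2F3, chr1:23531234-23531383 (minus) for E2F2 and chr19:29811841-29811990 (plus) for CCNE1. Each lies directly upstream of the gene, and in GENCODE 44 the windows overlap no exon except that of TYMS, which overlaps an exon of the antisense gene TYMSOS. Capitals mark E2F words, with one word of MCM6 starting before the window.
MCM6: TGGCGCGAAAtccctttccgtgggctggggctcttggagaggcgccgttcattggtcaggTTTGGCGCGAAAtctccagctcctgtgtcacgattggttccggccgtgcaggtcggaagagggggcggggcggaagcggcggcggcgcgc
TYMS: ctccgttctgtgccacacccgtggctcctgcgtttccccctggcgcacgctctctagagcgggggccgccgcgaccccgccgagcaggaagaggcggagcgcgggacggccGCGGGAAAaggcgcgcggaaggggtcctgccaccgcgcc
E2F1: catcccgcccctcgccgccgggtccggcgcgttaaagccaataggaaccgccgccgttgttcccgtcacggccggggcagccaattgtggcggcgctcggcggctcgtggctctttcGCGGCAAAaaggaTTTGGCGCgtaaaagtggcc
E2F3: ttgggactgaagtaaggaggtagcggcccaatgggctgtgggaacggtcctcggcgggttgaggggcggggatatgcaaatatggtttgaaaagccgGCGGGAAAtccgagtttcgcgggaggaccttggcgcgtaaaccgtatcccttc
E2F2: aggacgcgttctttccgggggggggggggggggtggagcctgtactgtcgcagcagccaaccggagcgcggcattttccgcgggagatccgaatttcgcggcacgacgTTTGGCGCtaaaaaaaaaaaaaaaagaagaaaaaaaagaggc
CCNE1: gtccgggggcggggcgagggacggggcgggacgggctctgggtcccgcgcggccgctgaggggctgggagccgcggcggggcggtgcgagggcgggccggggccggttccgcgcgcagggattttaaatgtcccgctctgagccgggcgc

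The search was for the E2F words TTTCCCGC, TTTCGCGC, TTTGCCGC and TTTGGCGC on both strands of the whole promoter entry, 250 bases before to 50 after the start. Of the 57 members, 49 had an entry, and 21 of those 49 (42.9%) held at least 1 E2F word, against 908 of all 27305 entries (3.33%). The MCM6 entry held 4 words, in 2 pairs in which a word and its partner on the other strand overlap. The words CCAAT were found in 29 of the 49 (59.2%, against 35.7% of all entries) and the cell-cycle homology words TTTGAA or TTCGAA in 3 (6.12%, against 16.6%). All entries served as the reference, without matching for expression or base composition. For PRIM2, ORC1, CDC45, POLD2 and RRM2 the start used lies inside the span of the gene, and these entries held no E2F word. A match describes the letters of the window and is not a shown binding site.

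Most of the replication genes were slightly lower after VPA. At an adjusted p under 0.05 (edgeR's quasi-likelihood test, adjusted over the 15298 genes) 45 of the 57 were lower, where 30% of all tested genes were, and 2 were higher, RFC1 and E2F2, where 32.9% were. The median log2 fold change of the members was -0.22 beside 0.0058 for all tested genes, with a range from -0.64 (CCNE2) to 0.16 (E2F2), and the median of the members turned to 0.048 when libraries were scaled on ribosomal protein genes. Of the 57, 0 reached the study's limits (adjusted p under 0.05 with a fold change past 1 on the log2 scale, up or down) by edgeR, 0 did so at an unadjusted p under 0.05, and DESeq2 gave 0 as well, where 0.503% of all tested genes passed as down and 12% as up. In 43 members every VPA-treated library lay below every untreated one (31% of tested genes), in 2 every one lay above (34.8%) and in 12 the groups overlapped. The 10 members with no call were ORC3, ORC4, ORC5, GINS1, GINS3, RFC3, RPA2, RPA3, PRIM1 and POLD2. As a share of all gene counts, the members took 0.970%, 0.989% and 0.986% of untreated libraries but 0.885%, 0.890% and 0.889% of those with VPA. In RNA from whole cultures, fewer cells in S phase and less of these RNAs in each cell cannot be told apart.

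**Figure D1:**
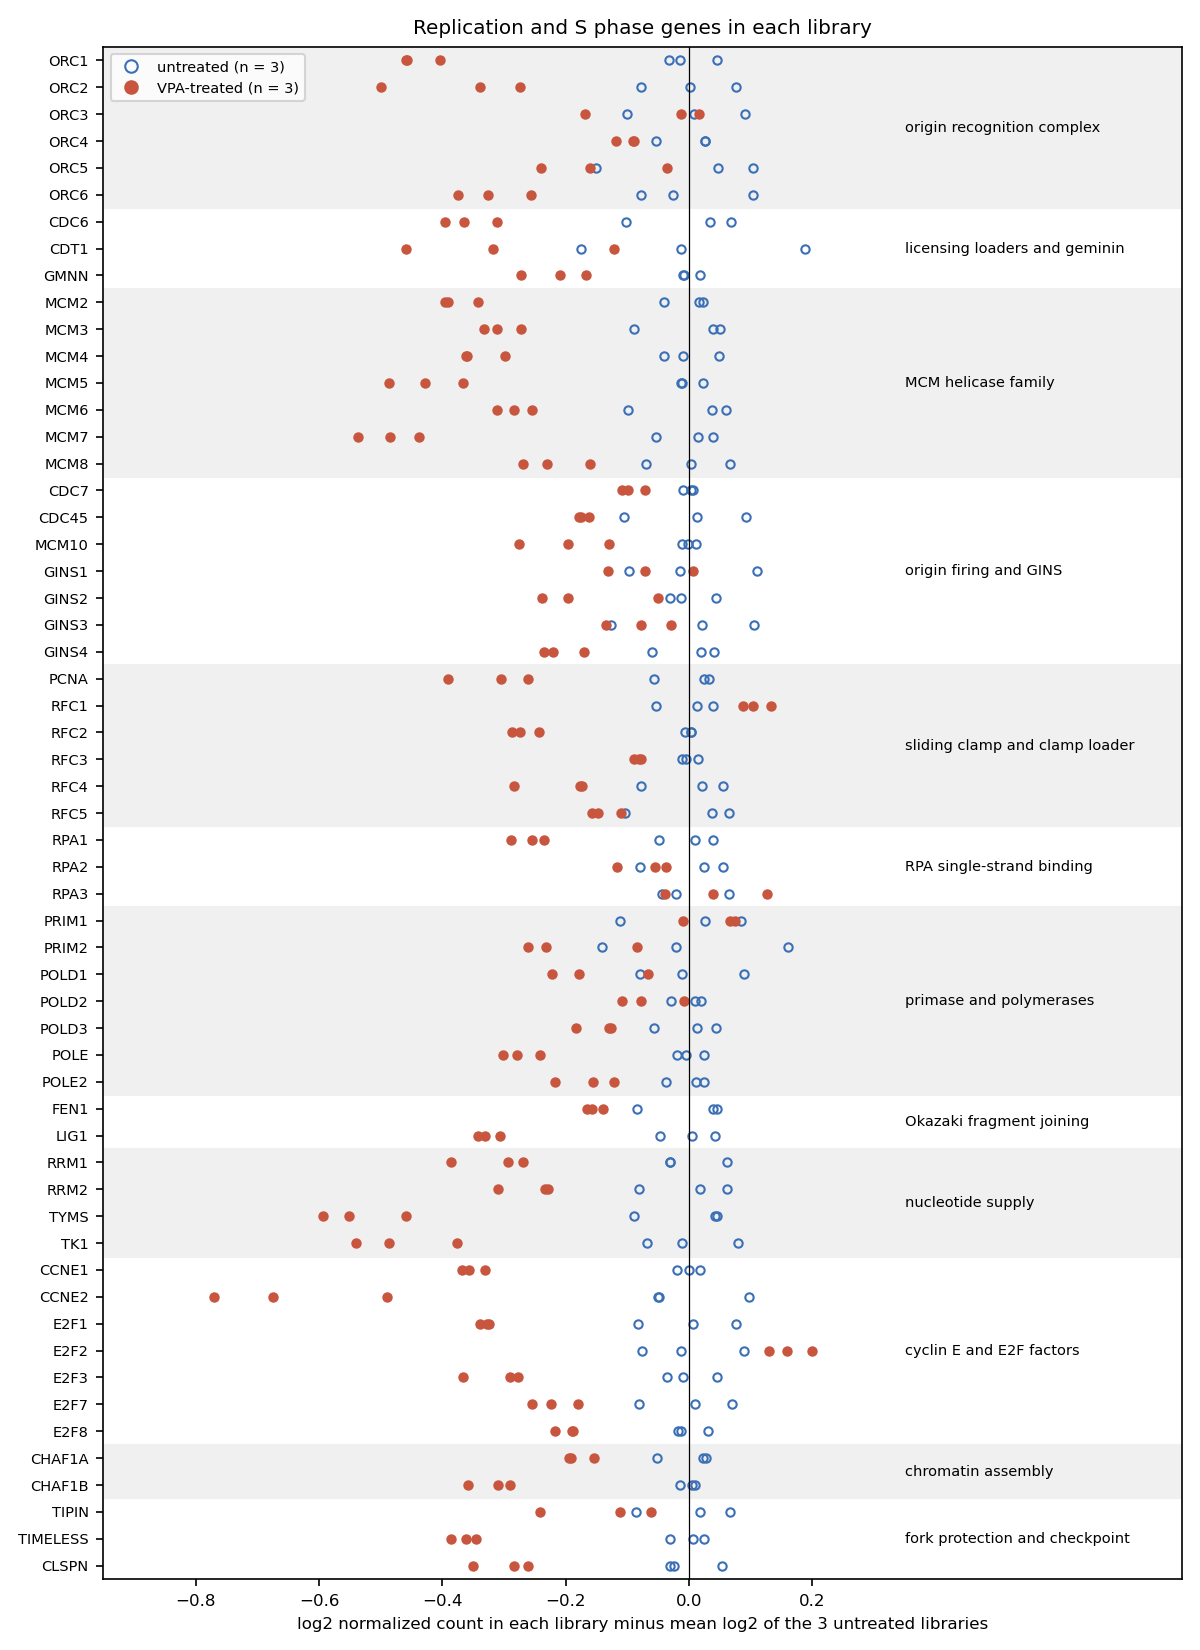
Each point is 1 library (untreated open, VPA-treated filled, 3 of each), and the horizontal axis is its log2 normalized count minus the mean log2 value of the 3 untreated libraries, for the 57 members by role. With this scaling, most filled points sit left of the open ones, and all 3 lie to the right for RFC1 and E2F2. With ribosomal protein scaling the median of the members is 0.048 and the direction of many turns.

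Well-counted genes as a whole were lower too, so the members were set beside genes of like mean normalized count (counts after TMM scaling, at the size of the mean library). Among the 618 tested genes with a mean of 5000 or over, 80.7% were lower, and 11 of 11 members were, with medians of -0.25 for the bin and -0.32 for its members. From 2000 to under 5000, 64.5% of 1661 genes and 16 of 20 members were lower, with medians of -0.17 and -0.18. From 1000 to under 2000, 46.3% of 2361 genes and 12 of 14 members were lower, with medians of -0.098 and -0.26, and here the members stood further from their bin. From 500 to under 1000, 35.8% of 2599 genes and 5 of 11 members were lower, with medians of -0.044 and -0.15. POLE2 was the 1 member from 100 to under 500, where 18.3% of 3825 genes were lower, and 0 members were among the 4234 genes with a mean under 100, of which 6.97% were lower. In all, 43 of the 57 lay below the median of their bin and 21 below its lower quartile, and the median distance to the bin median was -0.067, against -0.22 without that reference. The size of a distance to the bin was not tested.

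**Figure D2:**
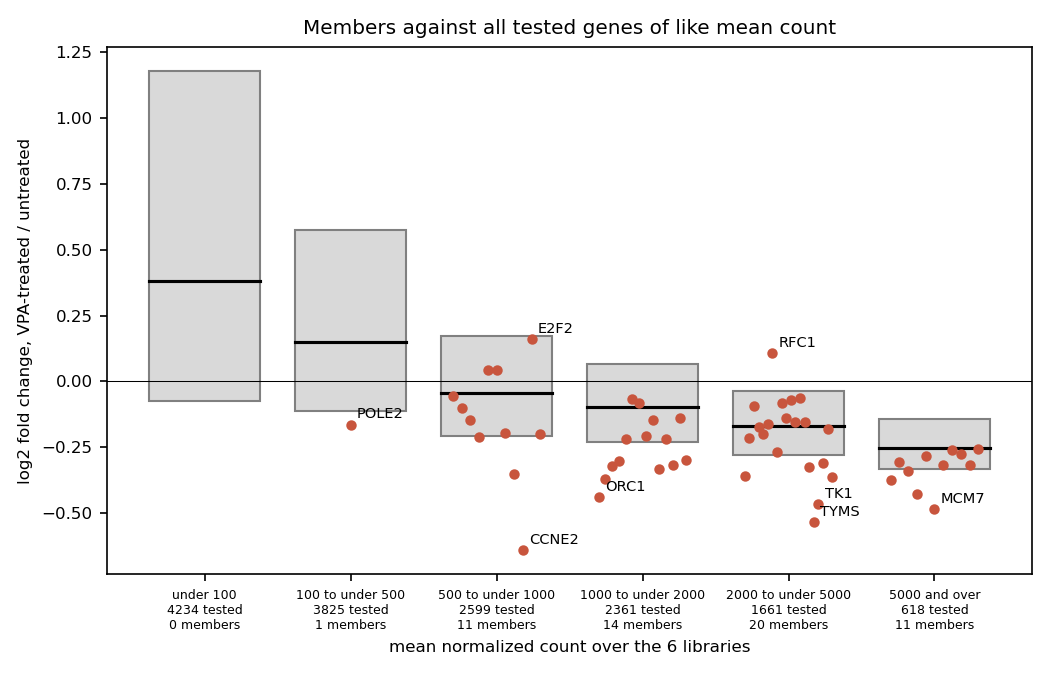
Grey boxes span the lower to the upper quartile of the log2 fold changes of all tested genes in 6 bins of mean normalized count, with the median as a black line, and red points are the members. The bin medians go down from 0.38 under 100 to -0.25 at 5000 and over, and CCNE2, TYMS, TK1, ORC1 and MCM7 lie below their boxes while RFC1 lies above its own. Under ribosomal protein scaling boxes and points move up together.

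Role groups lay at different distances from genes of like count. Relative to their bins, the median distance was -0.20 for fork protection and checkpoint genes, -0.19 for the licensing loaders and geminin, -0.18 for nucleotide supply, -0.16 for the origin recognition complex, -0.15 for cyclin E and E2F factors and -0.12 for both the MCM family and chromatin assembly. It was -0.073 for Okazaki fragment joining and lay between -0.023 and 0.087 for the polymerases, the clamp and its loader, origin firing with GINS, and RPA. These are descriptions of 2 to 7 genes each, and the differences between groups were not tested.

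**Figure D3:**
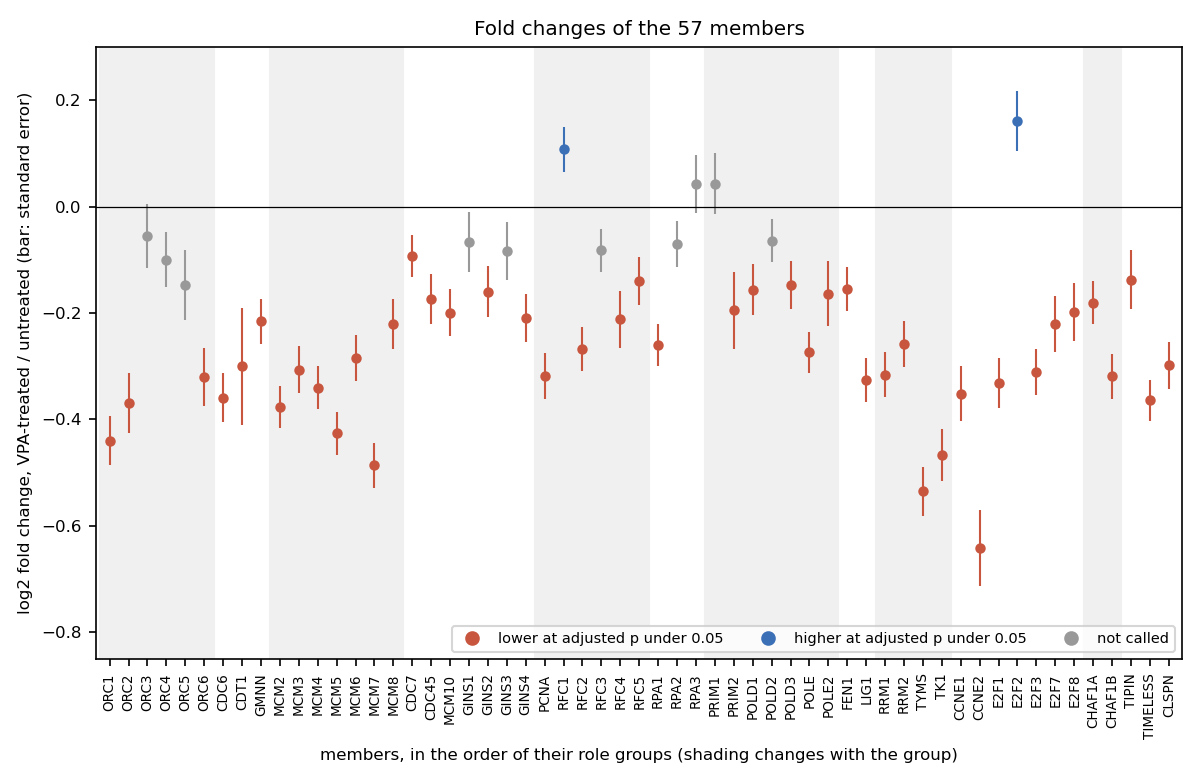
Points are log2 fold changes (VPA-treated over untreated, TMM scaling) of the 57 members by role, bars are standard errors, and color gives the call at an adjusted p under 0.05. CCNE2 (-0.64), TYMS (-0.53) and MCM7 (-0.49) are lowest, RFC1 and E2F2 are the 2 higher calls, and 10 grey points have no call. Scaling on ribosomal protein genes moves the median of the members to 0.048.

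The origin recognition complex, which marks origins for licensing, had 3 of 6 subunits lower (ORC1, ORC2 and ORC6), and ORC3, ORC4 and ORC5 turned positive under ribosomal protein scaling. There ORC2 (-0.10) and ORC6 (-0.052) stayed negative with no call. ORC1, ORC2 and ORC6 have mean counts from 1000 to under 2000, where 46.3% of genes were lower with TMM. ORC3, ORC4 and ORC5 lie from 500 to under 1000, where 35.8% were. ORC1, the subunit whose level changes through the cell cycle, had 1537, 1623 and 1556 normalized counts untreated and 1188, 1145 and 1144 after VPA. The groups did not overlap. Its log2 fold change was -0.44 ± 0.0461 (SE, 3 libraries a group, edgeR adjusted p = 3.76e-08), and 4.66% of the genes in its bin of mean count lay lower. ORC3, ORC4 and ORC5 had log2 fold changes of -0.055, -0.099 and -0.15 with no call, although the 3 VPA-treated values of ORC4 all lay below the untreated ones.

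The licensing loaders CDC6 and CDT1 and the licensing inhibitor geminin (GMNN) were all lower, with GMNN turning to 0.053 under ribosomal protein scaling. There CDC6 (-0.090) and CDT1 (-0.034) stayed negative with no call. CDC6 and GMNN have mean counts from 2000 to under 5000, where 64.5% of genes were lower with TMM. CDT1 lies from 1000 to under 2000, where 46.3% were. CDC6 had 3972, 4367 and 4470.0 normalized counts untreated and 3241, 3435 and 3313 after VPA. All VPA-treated values were below all untreated values, with a log2 fold change of -0.36 ± 0.0453 (edgeR adjusted p = 5.62e-07). CDT1 had 2433, 2118 and 1891 untreated and 1964, 1713 and 1554 after VPA, so its highest VPA-treated library lay above its lowest untreated one. Its log2 fold change of -0.30 ± 0.109 only just passed (edgeR adjusted p = 0.0427), and the call was lost without untreated library 2, VPA-treated library 2 or VPA-treated library 3 (adjusted p = 0.0602 to 0.0927). CDT1 lies outside the rule for the named genes and was picked after its values were seen.

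All 6 subunits of the MCM2 to MCM7 ring, the core of the replicative helicase, were lower, and under ribosomal protein scaling all 6 fold changes were still negative but those of MCM3 (-0.038), MCM4 (-0.072) and MCM6 (-0.016) were near 0 with no call (edgeR adjusted p = 0.417, 0.0974 and 0.754). MCM7 had 15816, 16589 and 16872 normalized counts untreated and 12122, 11319 and 11734 after VPA. The groups were far apart, with a log2 fold change of -0.49 ± 0.0426 (edgeR adjusted p = 2.27e-09). The log2 fold changes of the other subunits were -0.43 for MCM5, -0.38 for MCM2, -0.34 for MCM4, -0.31 for MCM3 and -0.28 for MCM6, each with a standard error of 0.0398 to 0.0438 and no overlap between the groups. All 6 have mean counts of 5000 or over, where 80.7% of genes were lower with a median of -0.25. In that bin 4.69% of genes lay below MCM7, 31.1% below MCM3 and 36.6% below MCM6. MCM8, a paralog that works in homologous recombination and is no part of the ring, was lower at -0.22 and turned to 0.048 under ribosomal protein scaling. MCM7 shares its locus (chr7:100092728-100101397, minus strand) with AP4M1 on the other strand.

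Per kilobase of the longest protein-coding transcript in GENCODE 44, the untreated levels of the ring were 5425 ± 181 (SD, n = 3) normalized counts per kb for MCM7, 3525 ± 184 for MCM3, 3000.2 ± 72.6 for MCM2, 2695 ± 84.8 for MCM4, 1863 ± 26.6 for MCM5 and 1695 ± 99.4 for MCM6. No pair of neighbours in this order overlapped across the untreated libraries. After VPA the levels were 3872 ± 133, 2851 ± 59.9, 2312 ± 48.7 and 2129 ± 52.8 for MCM7, MCM3, MCM2 and MCM4, and MCM5 (1386 ± 57.6) and MCM6 (1391 ± 27.1) overlapped. With the canonical transcript as the length, MCM7 stood at 6658 per kb untreated, so levels per kb depend on the transcript chosen.

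**Figure D4:**
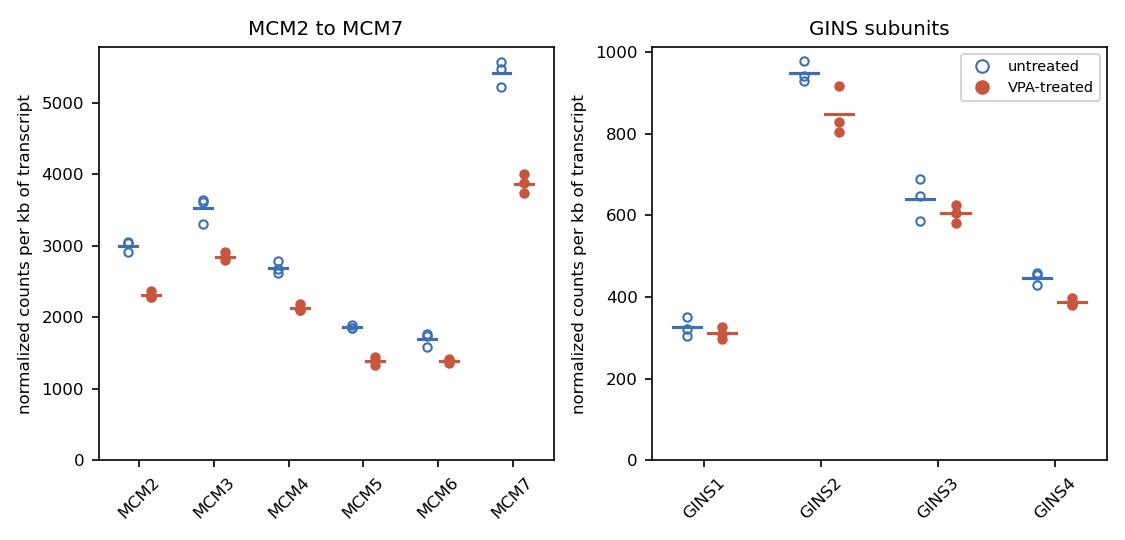
Points are single libraries (untreated open, VPA-treated filled), lines are group means, and the axes give normalized counts per kb of transcript, from 0, for MCM2 to MCM7 and GINS1 to GINS4. Each MCM subunit is separated between the groups, while GINS1 and GINS3 overlap. The GINS fold changes turn positive under ribosomal protein scaling, and those of MCM3, MCM4 and MCM6 come near 0 with no call.

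Fold changes of the origin firing genes were small. Of CDC7, CDC45, MCM10 and the 4 GINS subunits, 5 of 7 were lower with a median log2 fold change of -0.16, and all 7 turned positive under ribosomal protein scaling. CDC7, CDC45, MCM10 and GINS2 have mean counts from 2000 to under 5000, where 64.5% of genes were lower with TMM. GINS1, GINS3 and GINS4 lie from 1000 to under 2000, where 46.3% were. GINS4, a subunit of the GINS complex that joins the helicase at firing, had 1661, 1780.0 and 1755 normalized counts untreated and 1486, 1471 and 1538 after VPA. It had the largest change of this group, with no overlap and a log2 fold change of -0.21 ± 0.0455 (edgeR adjusted p = 0.000413). GINS2 was lower by a log2 fold change of -0.16, a call that was lost without VPA-treated library 3 (adjusted p = 0.0545). GINS1 (-0.067) and GINS3 (-0.083) had no call. CDC7, the kinase subunit that phosphorylates MCM, passed at -0.093 (adjusted p = 0.0486), and lost its call in 5 of the 6 fits that leave out 1 library, all but the one without untreated library 1 (adjusted p = 0.0723 to 0.138), and where at least 10 counts were asked of every library (adjusted p = 0.130).

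At the fork, the sliding clamp PCNA had 6020.1, 6405 and 6365 normalized counts untreated and 4777, 5227 and 5066 after VPA. The groups did not overlap, and the log2 fold change was -0.32 ± 0.0428 (edgeR adjusted p = 1.33e-06). Under ribosomal protein scaling it was -0.050 with no call (adjusted p = 0.288). Of the clamp loader, RFC2, RFC4 and RFC5 were lower, with signs that turned under ribosomal protein scaling, and RFC3 was not called at -0.082. RFC5 lost its call without untreated library 3 (adjusted p = 0.0511).

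RFC1, the large subunit of the clamp loader, went the other way, with 2213, 2113 and 2252 normalized counts untreated and 2354, 2329 and 2404 after VPA. Every VPA-treated library was above every untreated one, by a log2 fold change of 0.11 ± 0.0423 (edgeR adjusted p = 0.0310). The call was lost with DESeq2 (0.083, adjusted p = 0.195), with DESeq2 size factors in edgeR (0.094, adjusted p = 0.0611), without a filter on low counts (adjusted p = 0.138) and without untreated library 2, VPA-treated library 2 or VPA-treated library 3 (adjusted p = 0.0568 to 0.196). In its bin of mean count, 88.9% of genes lay below it. RFC1 was named after its values were seen, as 1 of the 2 higher members.

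RPA1, the large subunit of the single-strand binding complex RPA, had 5934, 6306 and 6176 normalized counts untreated and 5215, 5025 and 5143 after VPA. It was lower without overlap (log2 fold change -0.26 ± 0.0397, edgeR adjusted p = 7.33e-06), and turned to 0.0090 under ribosomal protein scaling. RPA2 (-0.070) and RPA3 (0.043) had no call and overlapped between groups.

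POLE, the catalytic subunit of the leading-strand polymerase epsilon, had 9068, 8794 and 8882 normalized counts untreated and 7538, 7233 and 7349 after VPA. The groups did not overlap, and the log2 fold change was -0.27 ± 0.0390 (edgeR adjusted p = 2.90e-06). Of the 7 primase and polymerase genes 5 were lower (PRIM2, POLD1, POLD3, POLE and POLE2), of which all but POLE turned positive under ribosomal protein scaling. POLE was at -0.0058 there, with no call (edgeR adjusted p = 0.906). Of the genes in their bins of mean count, 18.3% (POLE2) to 80.7% (POLE) were lower with TMM. PRIM1 was at 0.043 and POLD2 at -0.064, both without a call. PRIM2 and POLD1 overlapped between groups, and PRIM2 has a near-identical copy elsewhere in the genome, so its counts are uncertain. Single libraries decided some of these calls. PRIM2 lost its call without untreated library 3, VPA-treated library 1 or VPA-treated library 3 (adjusted p = 0.0721 to 0.158), POLD1 without VPA-treated library 2 (adjusted p = 0.0649), and POLE2 in the 4 fits without untreated library 2 or 3 or VPA-treated library 2 or 3 (adjusted p = 0.0517 to 0.0981) and with DESeq2 (adjusted p = 0.0679).

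LIG1, the ligase that seals Okazaki fragments, had 2854, 2683 and 2779 normalized counts untreated and 2204, 2241 and 2187 after VPA. Its log2 fold change was -0.33 ± 0.0415 (edgeR adjusted p = 6.09e-07), with no overlap. Under ribosomal protein scaling it was -0.059 with no call (edgeR adjusted p = 0.238). FEN1, the flap nuclease of the same step, was lower at -0.15 and turned to 0.11 under ribosomal protein scaling.

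Nucleotide supply held 4 of 4 lower genes and the lowest median of the role groups, -0.39. RRM1 and RRM2 have mean counts of 5000 or over, where 80.7% of genes were lower. TYMS and TK1 lie from 2000 to under 5000, where 64.5% were. Relative to genes of like count the median of the group was -0.18, not the lowest, beside -0.20 for fork protection and checkpoint genes. RRM2 lay -0.0072 from its bin median. Under ribosomal protein scaling RRM2 turned to 0.011 and RRM1 was at -0.047 with no call. TYMS, the thymidylate synthase whose upstream window with 1 E2F word is shown above, had 3461, 3788 and 3799.9 normalized counts untreated and 2439, 2510.0 and 2676 after VPA. The lowest untreated library stood well above the highest treated one, and the log2 fold change was -0.53 ± 0.0463 (edgeR adjusted p = 1.89e-09). In its bin of mean count 2.23% of genes lay lower. TYMS (chr18:657653-673578, plus strand) is overlapped on the other strand by ENOSF1 and TYMSOS. TK1, the salvage kinase for thymidine, was lower at -0.47, and RRM1 and RRM2, the subunits of ribonucleotide reductase, at -0.32 and -0.26.

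CCNE2, the second cyclin E, had the largest change of all 57, with 668, 603 and 603 normalized counts untreated and 366, 445 and 391 after VPA. The groups were well apart, and the log2 fold change was -0.64 ± 0.0718 (edgeR adjusted p = 9.73e-08), -0.72 to -0.58 when 1 library was left out. In its bin 1.23% of genes lay lower, and on the other strand of its locus lie INTS8 and NDUFAF6. CCNE1 was lower at -0.35. Of the activator E2F factors, E2F1 (-0.33) and E2F3 (-0.31) were lower, as were the atypical repressors E2F7 (-0.22) and E2F8 (-0.20), of which E2F7 and E2F8 turned positive under ribosomal protein scaling. There CCNE1 (-0.083), E2F1 (-0.064) and E2F3 (-0.043) stayed negative with no call (edgeR adjusted p = 0.170, 0.270 and 0.424).

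E2F2, the third activator, was higher, with 749, 698 and 668 normalized counts untreated and 809, 786 and 770.0 after VPA. The lowest VPA-treated value lay just above the highest untreated one, with a log2 fold change of 0.16 ± 0.0566 (edgeR adjusted p = 0.0170). It kept this direction and call under all 5 scalings in edgeR, but had no call with DESeq2 (0.14, adjusted p = 0.135) or without untreated library 2, untreated library 3 or VPA-treated library 1 (adjusted p = 0.0563 to 0.108). E2F2 too was named after its values were seen. The E2F1, E2F3 and E2F2 windows above each hold an E2F word, and that of CCNE1 holds none.

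CHAF1B, a subunit of the CAF-1 complex that places histones behind the fork, had 1995, 2023 and 2031 normalized counts untreated and 1627, 1649 and 1574 after VPA. Its log2 fold change was -0.32 ± 0.0428 (edgeR adjusted p = 1.32e-06), and the groups did not overlap. Under ribosomal protein scaling it was -0.051 with no call (edgeR adjusted p = 0.301). CHAF1A was lower at -0.18 and turned to 0.088 under ribosomal protein scaling.

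TIMELESS, a scaffold of the fork protection complex, had 4969, 4842 and 5033 normalized counts untreated and 3788, 3893 and 3850.2 after VPA. The log2 fold change was -0.36 ± 0.0386 (edgeR adjusted p = 4.31e-08), without overlap. Its partner TIPIN was lower at -0.14 with overlapping groups, turned to 0.13 under ribosomal protein scaling, and lost its call in the 4 fits without untreated library 2 or 3 or VPA-treated library 1 or 2 (adjusted p = 0.0571 to 0.187), with DESeq2 (adjusted p = 0.0509) and where at least 10 counts were asked of every library (adjusted p = 0.0797). CLSPN, the adaptor that hands the signal of a stalled fork to CHEK1, was lower at -0.30, and at -0.031 with no call under ribosomal protein scaling.

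Members with and without an E2F word in the promoter entry are given side by side. Of the 21 with a word 16 were lower and 1 higher, with a median log2 fold change of -0.30, and of the 28 without 23 were lower and 1 higher, with a median of -0.21. Of all tested genes 30% were lower and 32.9% higher. The 5 members with 2 or more words (MCM2, MCM3, MCM6, MCM7 and E2F1) were all lower, with a median of -0.33. MCM2, MCM3, MCM6 and MCM7 have mean counts of 5000 or over, where 80.7% of genes were lower with a median of -0.25. E2F1 lies from 1000 to under 2000, where 46.3% were lower with a median of -0.098. The set without a word includes PRIM2, ORC1, CDC45, POLD2 and RRM2, whose start used lies inside the gene. The difference between the sets of members was not tested.

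How far the direction holds depended on the scaling of the libraries. Scaling on library totals moved the median of all tested genes to 0.14 and on ribosomal protein genes to 0.27, while that of the members became -0.089 and 0.048. A scaling adds about the same amount to every gene, so the distance of the members to the median of all genes (-0.23) and the 53 of 57 members below it are fixed by construction, and against genes of like count the distance was -0.067. Of the calls, 95.7% were lower with TMM, 86.7% when scaled on totals and 32% when scaled on ribosomal protein genes. With ribosomal protein scaling 8 members were lower and 17 higher, where 5.69% and 60% of all tested genes were. On totals 26 members were lower and 4 higher, where 15.5% and 43.9% of all tested genes were. Another 16 members that were lower with TMM kept a negative value under ribosomal protein scaling but had no call there (ORC2, ORC6, CDC6, CDT1, MCM3, MCM4, MCM6, PCNA, POLE, LIG1, RRM1, CCNE1, E2F1, E2F3, CHAF1B and CLSPN). The 8 members that were lower under all 5 scalings were ORC1, MCM2, MCM5, MCM7, TYMS, TK1, CCNE2 and TIMELESS. Against a minimum change of 0.25 (edgeR's glmTreat) 14 members passed as lower and 0 as higher. The shares of all tested genes that pass this limit, or are lower under all 5 scalings, are not given here. These counts of members therefore stand without a background.

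**Figure D5:**
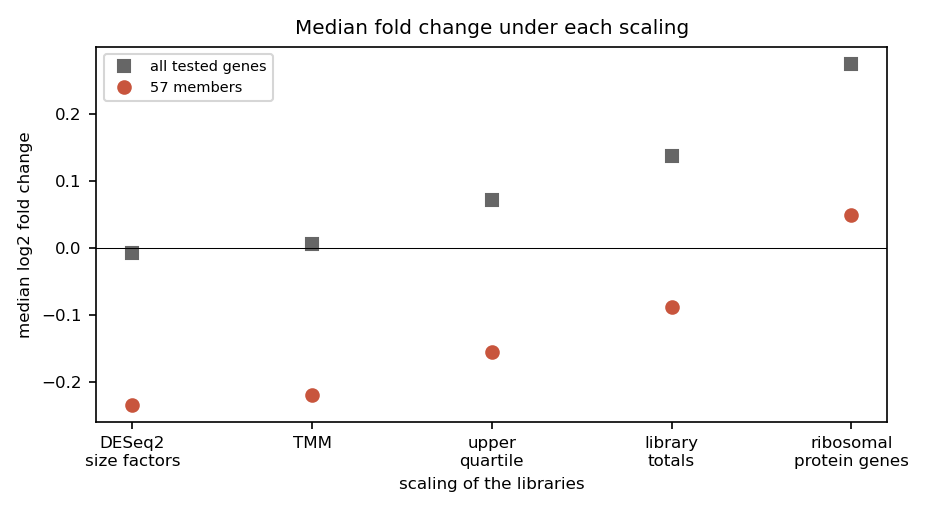
Grey squares are medians over the 15298 tested genes and red circles medians over the 57 members of the log2 fold change, under 5 scalings of the libraries. The distance of about 0.23 between the medians is the same by construction, and the members' median turns from -0.22 with TMM to 0.048 with ribosomal protein scaling.

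Among 88 other genes of replication and S phase, 84 were tested and 51 were lower and 8 higher (30% and 32.9% of all tested genes), with a median log2 fold change of -0.18 that turned to 0.086 under ribosomal protein scaling. There 9 were lower and 34 higher, where 5.69% and 60% of all tested genes were. When scaled on totals 26 were lower and 20 higher, where 15.5% and 43.9% of all tested genes were. The median distance of this list to genes of like count was -0.048. CCNA1, a cyclin A of the germline, was the 1 gene past the study's thresholds, with 5.17, 2.09 and 4.20 normalized counts untreated and 27.8, 27.9 and 24.9 after VPA (log2 fold change 2.77 ± 0.345, edgeR adjusted p = 4.58e-07). It is counted at a very low level in both groups. By the smallest p in each list, MCM9, an MCM paralog, was lower at -0.70 among other licensing and firing genes (11 of 17 lower, 0 higher), and POLE4, an accessory subunit of polymerase epsilon, at -0.98 among other fork enzymes (9 of 15 lower, 0 higher). CTPS1, the CTP synthase, was lower at -0.58 among other nucleotide enzymes (11 of 15 lower, 2 higher). CCNA2, the cyclin of S phase and G2, was lower at -0.60 among other E2F, RB and cyclin genes (10 of 21 lower, 5 higher), and CHEK1, the checkpoint kinase, at -0.36 among S phase chromatin and checkpoint genes (10 of 16 lower, 1 higher). CUL4B, POLA1 and CHTF8 are listed at 0 in all libraries and ATRIP had 33 counts in sum, so these 4 were not tested.

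Markers of G2 and mitosis lay close to genes of like count. Of 30 such genes 20 were lower and 1 higher (30% and 32.9% of all tested genes), with a median log2 fold change of -0.22. That median turned to 0.046 under ribosomal protein scaling. There 0 were lower and 11 higher, where 5.69% and 60% of all tested genes were. The median distance of these markers to the medians of their bins was -0.013. Their share of gene counts was 0.478% to 0.492% untreated and 0.465% to 0.476% after VPA. GTSE1 had the smallest p, at -0.36 (edgeR adjusted p = 2.35e-07). Of 8 inhibitors of cyclin-dependent kinases 4 were higher and 2 lower, where 32.9% and 30% of all tested genes were, and CDKN1C (p57, log2 fold change 1.03, edgeR adjusted p = 3.14e-05) was the 1 past the study's limits, named after its values were seen. CDKN1A (p21) had 284, 289.7 and 345 normalized counts untreated and 503, 507 and 442 after VPA, higher without overlap (log2 fold change 0.66 ± 0.0802, edgeR adjusted p = 3.33e-07), and CDKN2C (p18) was lower at -0.44. The part that the cell cycle makeup of the cultures had in the change of the members was not tested.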

How the data were processed

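Strand-specific mRNA libraries were read as paired ends on a DNBSEQ instrument. After read cleaning (SOAPnuke) and alignment to hg38 (STAR, 2.7.10b in the submitters' processing notes), the authors deposited raw counts per gene from htseq-count (HTSeq 2.0.1 in those notes), without normalization. The annotation and strand setting of the counting are not given in the sources used here, so genes overlapping on opposite strands may share reads. The 5 summary lines were left out of totals and tests. Reads off any gene were 6.80% to 7.69% of those listed.

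Testing used edgeR 4.0.16 under R 4.3.3 (TMM, filterByExpr with a count minimum of 10, robust quasi-likelihood fit, condition as the only term, Benjamini-Hochberg adjustment over 15298 genes). Standard errors are fold changes (log2) over the root of F. Replicates differed by more than sampling noise. The code was tested on simulated data. Values in every library are given for the member with the largest change and the smallest p in each of 12 role groups, members past a log2 fold change of 0.5, and CDKN1A. Fold changes are given for MCM2 to MCM7 and GINS, and for the gene with the smallest p in each list of other genes. Alternatives were DESeq2 1.42.0, 4 other scalings, other filters, leaving out each library, glmTreat, a stricter FDR (0.01) and a block for the replicate number. Members and lists were chosen with earlier results of these data known. The distances to genes of like count and to the median of all genes, and the other lists under each scaling, were added after seeing the data. Gene levels per kb used GENCODE 44, and promoters and coordinates RefSeq on GRCh38.p14.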

Additional observations from a re-analysis of the deposited data

How the results depend on the processing

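Brackets give the share of all genes tested in each fit. The count of lower members was 45 (30%). With DESeq2, DESeq2 size factors, upper quartile scaling, other filters or a replicate block it was 35 to 49 (18.8% to 33.3%). With 1 library left out it was 40 to 48 (26.6% to 29.1%). It was 26 when scaled on totals, 8 when scaled on ribosomal protein genes and 14 against a change of 0.25. Of all tested genes, 15.5% were lower and 43.9% higher on totals, and 5.69% and 60% on ribosomal protein genes. The count of higher members was 2, against 0 with DESeq2, 1 with DESeq2 size factors, 4 and 17 under these same scalings, 1 without a filter, 0 at an FDR of 0.01, 0 against a change of 0.25 and 0 to 2 with 1 library left out, with 0 without untreated library 2 and 2 without untreated library 1. The median of the members was -0.15 with upper quartile scaling, -0.089 when scaled on totals and 0.048 when scaled on ribosomal protein genes. Its distance to all genes was -0.25 to -0.22 with 1 library left out. The shifts with the scalings follow from their construction, which adds about the same amount to each gene, and which scaling is right was not tested.

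With ribosomal protein scaling the log2 fold change turned positive for ORC3 (0.21), ORC4 (0.17), ORC5 (0.12), GMNN (0.053), MCM8 (0.048), CDC7 (0.18), CDC45 (0.095), MCM10 (0.069), GINS1 (0.20), GINS2 (0.11), GINS3 (0.19), GINS4 (0.060), RFC2 (0.00049), RFC3 (0.19), RFC4 (0.057), RFC5 (0.13), RPA1 (0.0090), RPA2 (0.20), PRIM2 (0.073), POLD1 (0.11), POLD2 (0.20), POLD3 (0.12), POLE2 (0.10), FEN1 (0.11), RRM2 (0.011), E2F7 (0.048), E2F8 (0.070), CHAF1A (0.088) and TIPIN (0.13). With library totals it did so for ORC3 (0.077), ORC4 (0.032), CDC7 (0.039), GINS1 (0.065), GINS3 (0.049), RFC3 (0.049), RPA2 (0.062) and POLD2 (0.067), and with upper quartile scaling for ORC3 (0.011) and POLD2 (0.0012). With 1 library left out, the uncalled values ranged from -0.00082 (without VPA-treated library 2) to 0.082 for RPA3 and from -0.017 (without untreated library 1) to 0.079 for PRIM1.

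Same-numbered libraries of the 2 groups deviated together with r of 0.32, 0.089 and 0.24, not all over 0.1, so the numbers were not taken as pairs, although every library correlated best with its own number. With the replicate number as a block 49 members were lower and 2 higher, where 33.3% and 35% of all tested genes were. In each fit without 1 library the group left with 2 is assumed to vary like the other.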

Other observations

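Ratios of counts within a library do not depend on how libraries are scaled. Of 7 pairs of genes, chosen after their values were seen, the E2F2 to E2F1 ratio was 0.406, 0.397 and 0.404 in the untreated libraries and 0.580, 0.562 and 0.556 after VPA, a log2 difference of 0.49. The RFC1 to PCNA ratio was 0.368, 0.330 and 0.354 untreated and 0.493, 0.446 and 0.475 after VPA (log2 difference 0.43). The CCNE2 to CCNE1 ratio was 0.750, 0.669 and 0.686 untreated and 0.517, 0.644 and 0.563 after VPA (-0.29), and the MCM7 to GINS1 ratio was 13.5, 13.0 and 15.3 untreated and 10.8, 9.55 and 10.9 after VPA (-0.42).

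Ratios across neighbouring steps were also taken. The ratio of TYMS, which makes dTMP, to DUT, which makes its substrate dUMP, was 1.97, 1.80 and 1.74 untreated and 1.16, 1.05 and 1.07 after VPA, a log2 difference of -0.75. The ratio of CCND2, a cyclin D of G1, to CCNE2 was 0.803, 0.912 and 0.993 untreated and 2.37, 2.22 and 2.14 after VPA (1.32). In these 6 ratios no VPA-treated library overlapped an untreated one. The two-sided exact permutation p was 0.1, the smallest that 3 against 3 libraries can give (0.117 adjusted over the 7). None can therefore pass 0.05. The adjustment does not account for choosing pairs by values already seen, so the lack of overlap is description only. Of single tested genes, 31% had every VPA-treated library below every untreated one and 34.8% above. The share for other pairs of genes is not given here. The GMNN to CDT1 ratio, inhibitor to loader, overlapped, with 1.01, 1.17 and 1.33 untreated and 1.05, 1.29 and 1.38 after VPA (log2 difference 0.083, two-sided exact permutation p = 0.6).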
